A study of Mus musculus with 14 samples.

Results

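In the expression table of 23174 rows, 46 genes were high at a single step of a mouse stem cell differentiation and lower before and after it. The step is passage 1 of chemically induced extraembryonic endoderm (cXENp1). A gene was taken when its lowest value among the 4 cXENp1 libraries was at least 5 FPKM (fragments per unit of transcript length and of library size) and at least 2 times the highest value among the other 10 libraries. Of 74 genes that met these limits, 28 were left out because their symbols begin with Hox, Cyp26, Crabp, Zscan4, Usp17, Slc, Wnt, Fzd, Eph, Efn, Sema or Fox. The contrast of cXENp1 with the other stages therefore chose the genes and is given as a description without a test, and Zfp281 state did not enter the rule. The rule still bounds the differences between Zfp281-null and Zfp281-present lines: a gene low in any cXENp1 library, or high in any other library, could not be taken, so shares of the set called within a stage or between ESCs and cXENp3 are not read against those of all genes.

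All-trans retinoic acid enters the nucleus and binds retinoic acid receptors, which sit with RXR partners on response elements and switch target genes from repression to activation. Its targets include feedback genes of its own metabolism and, in germ cells, genes of meiotic entry. Activin A acts through receptor kinases and SMAD proteins. Extraembryonic endoderm (XEN) cells are stem cells of the yolk sac endoderm, and Zfp281 is a zinc finger transcription factor of pluripotent cells.

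The study asked how loss of Zfp281 affects the passage from embryonic stem cells (ESCs) to XEN cells, by polyA RNA-seq of 14 libraries. The lines carry the 129S1/SVImJ background, given as 129S1 for XENB1. The 2 Zfp281-present lines of the course are wild-type 3WT and 3.34Null-Rescue, which is 3.34Null with Zfp281 put back, and the 2 null lines are the Zfp281 knockouts 3.34Null and 2.6Null (so named in the titles, while the cell line field gives the latter another number). Each of these 4 lines gave 1 library at each of 3 stages: ESCs, cXENp1 and cXENp3. Stage cXENp1 followed 48 hours in XEN medium with 0.01 µM retinoic acid and 10 ng/mL activin A, and stage cXENp3 followed a passage on inactivated fibroblast feeders and a further one on gelatin. XENB1 and XEN5 are established wild-type XEN lines that were not taken through the course. The wild type and the rescue are 1 line each, and the rescue shares its origin with 3.34Null, so the 4 lines are not fully independent. With 1 library per line and stage, p-values rest on a spread that mixes differences between lines, cultures and libraries. Zfp281 itself read 25.1 to 38.6 FPKM in the 6 libraries of 3WT and 3.34Null-Rescue, 1.29 to 3.96 FPKM in 3.34Null and 0 to 0.559 FPKM in 2.6Null.

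The sum of FPKM was 424406 to 520485 in the cXENp1 libraries and 515475 to 718138 in the other libraries, so the same FPKM is mostly a larger share of the whole at cXENp1. The 46 genes held 0.407% to 0.572% of the sum at cXENp1 and 0.0183% to 0.0717% elsewhere. Read depth is unknown. The 3 ESC libraries of 3WT, 3.34Null and 3.34Null-Rescue carry the sample prefix JH and the other 11 carry XH. What the prefix stands for was not stated. Both present ESC libraries carry JH, so in the fits below a prefix term is set by 3.34Null against 2.6Null ESCs alone. It cannot be told apart from a difference between those lines. The 12 pluripotency markers summed to 7302 to 10048 FPKM in the ESC libraries and 360.3 to 1094 FPKM at cXENp1. At cXENp3 they stood at 7532 FPKM in 3WT and 4023 FPKM in 3.34Null-Rescue, against 1101 FPKM in 3.34Null and 364.0 FPKM in 2.6Null. The 14 XEN markers read 3369 to 4482 FPKM in the null lines at cXENp3 and 148.6 to 717.0 FPKM in the present lines, although Lama1, Col4a1, Col4a2 and Sparc are listed at 0 in the null lines there and in the XEN lines. In ESCs the XEN markers already summed to 594.9 FPKM in 2.6Null, against 81.3 to 98.9 FPKM in the other lines. At cXENp1 they summed to 3467 FPKM in 2.6Null and to 479.7 to 624.2 FPKM in the other lines. The line 2.6Null thus stood apart at cXENp1 and before it. Sparc, Col4a1, Col4a2 and Lama1 gave 851.6, 771.7, 398.5 and 234.0 FPKM of that 2.6Null sum. At cXENp3 Sparc alone gave 474.8 of the 717.0 FPKM of 3.34Null-Rescue. These sums therefore cannot be set against those of libraries that list these genes at 0.

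Promoter windows are shown for 3 genes whose courses are described below: the retinoic acid receptor Rarb, the retinaldehyde reductase Dhrs3 and the imprinted gene Mest. Each window holds the 250 bases before the transcript and its first 50 bases, in RefSeq's GRCm38.p6 build, 5′ to 3′ along the gene. Capitals mark a DR5 retinoic acid response element in Rarb (chr14:16575427-16575726, minus strand), whose first base lies 53 bases before the start. In Dhrs3 (chr4:144892577-144892876, plus strand) and Mest (chr6:30737800-30738099, plus strand) they mark GGGGAGGGG, a G-rich stretch like those Zfp281 is known to bind.
Rarb: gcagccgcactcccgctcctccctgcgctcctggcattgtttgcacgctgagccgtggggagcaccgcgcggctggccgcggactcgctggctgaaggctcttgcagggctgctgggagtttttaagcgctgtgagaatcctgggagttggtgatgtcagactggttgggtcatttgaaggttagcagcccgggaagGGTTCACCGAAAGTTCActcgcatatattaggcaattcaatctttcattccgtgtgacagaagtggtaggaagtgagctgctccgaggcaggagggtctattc
Dhrs3: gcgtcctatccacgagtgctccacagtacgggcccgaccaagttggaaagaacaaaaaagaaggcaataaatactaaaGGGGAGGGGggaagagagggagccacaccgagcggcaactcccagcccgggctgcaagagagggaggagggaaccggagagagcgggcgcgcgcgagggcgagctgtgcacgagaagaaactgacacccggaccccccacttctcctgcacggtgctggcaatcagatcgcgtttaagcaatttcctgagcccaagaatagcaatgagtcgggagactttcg
Mest: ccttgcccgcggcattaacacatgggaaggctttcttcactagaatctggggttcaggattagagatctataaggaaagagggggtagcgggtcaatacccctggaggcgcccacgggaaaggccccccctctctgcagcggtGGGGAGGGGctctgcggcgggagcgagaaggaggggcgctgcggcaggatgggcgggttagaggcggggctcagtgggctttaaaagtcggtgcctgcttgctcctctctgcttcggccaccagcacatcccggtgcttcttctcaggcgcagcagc

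Of the 46 genes, 37 matched a RefSeq promoter by symbol, with 53 windows of 300 bases among 32851 in all. On both strands, the DR5 element was found in 1 member window, that of Rarb, and in 0.0974% of all windows. The DR2 element was found in 0 member windows and in 0.268% of all. GGGGAGGGG stood in 8 member windows of 7 genes (Dhrs3, Igdcc3, Irx3, Mest, Mex3b, Scube3 and Sox4), which is 15.1% against 6.37% of all windows. The Mest windows overlap (starting at 30737800 and 30737803) and hold the same stretch, which was counted for each. The SMAD motif CAGACA stood in 17.0% of member windows against 21.0% of all, and the TEAD motif GGAATG in 11.3% against 14.7%. The AP-1 motif TGANTCA stood in 1.89% against 7.81%, and the CArG box in 0 member windows against 1.63% of all. A match describes letters in a window, and a window without one says only that these letters are not there.

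The heights of the peak spanned a wide range. The lowest cXENp1 value lay under 10 FPKM in 18 genes and at 100 FPKM or more in 3, namely Mest, Stra8 and Pmp22. The ratio of the lowest cXENp1 value to the highest other value had a median of 3.26 and ran from 2.00 to 31.2, with 18 genes under 3 and 3 at 10 or more. Between the lines, the highest cXENp1 value of a gene was a median of 2.13 times its lowest, from 1.23 times in Olfm2, a secreted olfactomedin, to 15.2 times in Gm20765. Pdk3 (ratio 2.00), Gpr153 (2.01), Dhrs3 (2.02) and Smad6 (2.05) lay just inside the limit, and Ttyh3 (1.97), Gli3 (1.94), Rnf122 (1.89) and Mira (1.88) just outside it. The runner-up library was a cXENp3 library of a present line for 19 genes and of a null line for 13, an ESC library for 12 and an XEN line for 2. A value of 0 occurred in at least 1 other library for 13 genes and in all 10 for 0 genes.

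**Figure D1:**
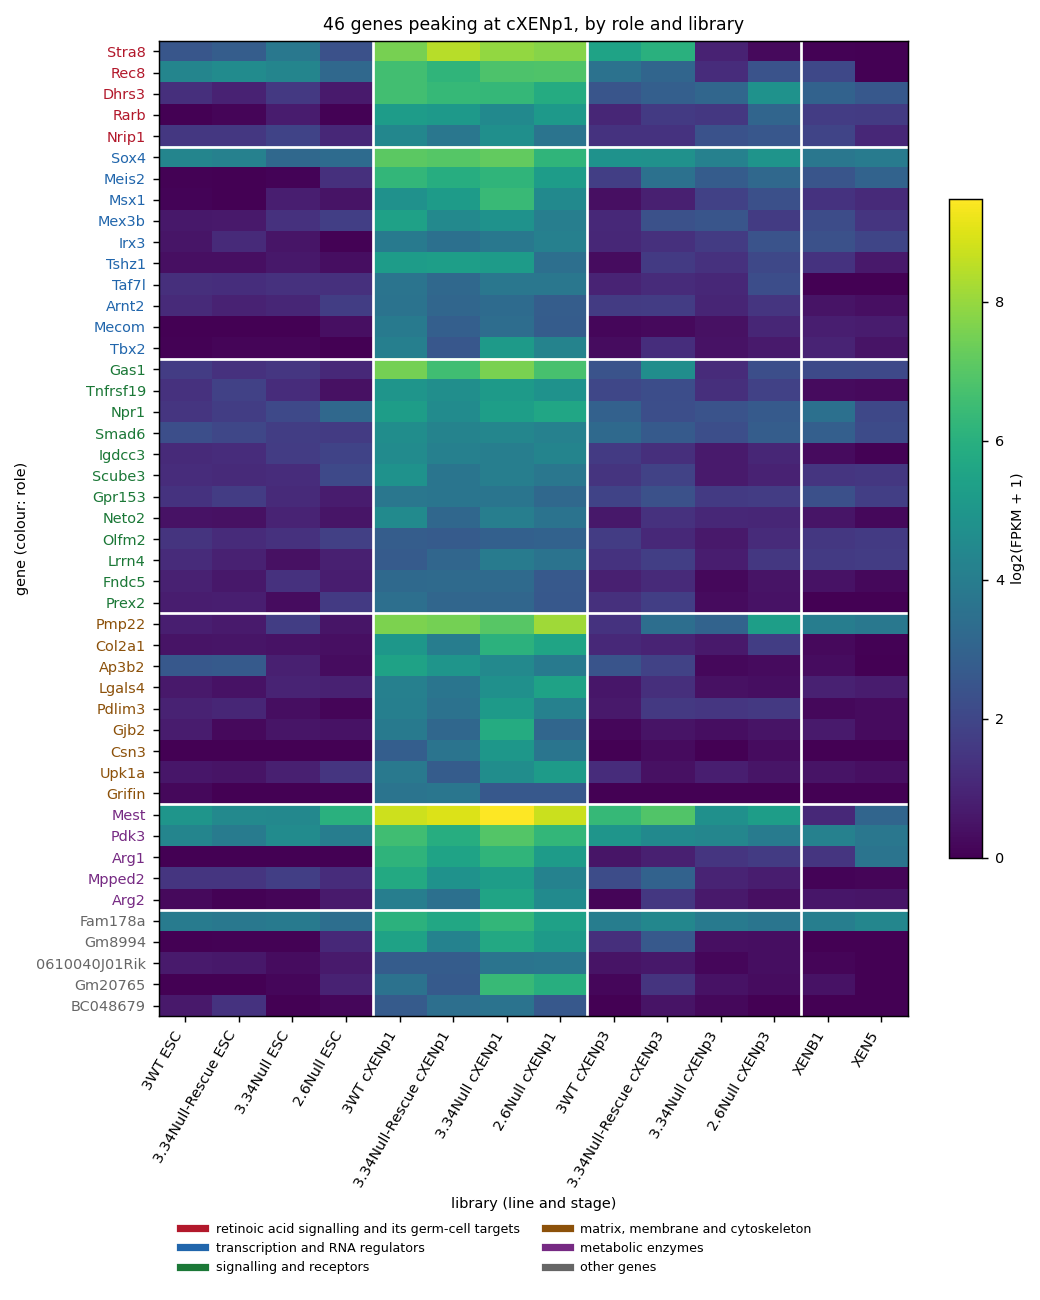
Levels of the 46 genes in the 14 libraries, as log2(FPKM + 1) as colour, with genes in rows grouped by role and libraries in columns by stage and line. In every row the 4 cXENp1 cells are the brightest, which the choice of genes fixed, and the heights differ from 5 FPKM to 714.1 FPKM.

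The retinoic acid group held 5 of the genes. Stra8, a retinoic acid-induced gene of meiotic entry (XLOC_016415, chr6:34870960-34889342 in mm9), was at 4.85 FPKM in 3WT, 5.88 in 3.34Null-Rescue, 13.0 in 3.34Null and 4.07 in 2.6Null ESCs. In the same order its level at cXENp1 was 182.8, 350.1, 246.8 and 218.1 FPKM. The XEN lines were at 0.0391 (XENB1) and 0 FPKM (XEN5). Rec8, the meiotic cohesin subunit, was already at 8.30 to 22.6 FPKM in ESCs and reached 97.8 FPKM in 3WT, 73.1 in 3.34Null-Rescue, 114.3 in 3.34Null and 117.2 in 2.6Null. These 2 germ-cell genes were thus above 70 FPKM in every cXENp1 library.

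Rarb (XLOC_006159, chr14:17263354-17407724 in mm9), whose window with the DR5 element is printed above, was at 0.0164 to 0.637 FPKM in ESCs. At cXENp1 it stood at 36.7 FPKM in 3WT, 33.9 in 3.34Null-Rescue, 21.6 in 3.34Null and 33.6 in 2.6Null. Dhrs3, which turns retinaldehyde back into retinol, went from 0.603 to 2.00 FPKM in ESCs to 95.8, 80.5, 78.1 and 55.4 FPKM in the same order. Nrip1, a corepressor of nuclear receptors, was the lowest of the 5, at 11.6 to 25.4 FPKM. None of these 5 was called between null and present lines at cXENp1 by the test given below.

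Of the set, 10 genes encode transcription and RNA regulators: the homeobox genes Meis2, Msx1 and Irx3, the T-box gene Tbx2, the SRY-box gene Sox4, the zinc finger genes Tshz1 and Mecom, the bHLH-PAS gene Arnt2, the germ-cell TFIID paralogue Taf7l and the RNA-binding Mex3b. Sox4 had the highest levels, with 135.7 FPKM in 3WT, 125.9 in 3.34Null-Rescue, 147.9 in 3.34Null and 73.3 in 2.6Null. Meis2 stood at 75.8, 59.3, 71.9 and 37.3 FPKM in that order, against 0 to 1.51 FPKM in ESCs. Msx1 varied more, at 26.8, 35.8, 86.1 and 21.8 FPKM, and Tbx2 stood at 15.9, 5.02, 35.0 and 17.9 FPKM. For Msx1 and Tbx2 the highest line was 3.34Null, while for Meis2 and Sox4 the lowest was 2.6Null.

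The 12 signalling genes were led by Gas1, a hedgehog co-receptor, with 179.9 FPKM in 3WT, 93.3 in 3.34Null-Rescue, 188.5 in 3.34Null and 105.5 in 2.6Null against 1.11 to 2.23 FPKM in ESCs. Tnfrsf19, a receptor of the TNF family, was even between lines, at 24.5 to 35.2 FPKM. Npr1, a natriuretic peptide receptor, was at 23.1 to 48.1 FPKM, and Smad6, an inhibitory SMAD, at 17.1 to 24.0 FPKM. The immunoglobulin superfamily gene Igdcc3 stood at 15.8 to 22.8 FPKM, and the kainate receptor auxiliary subunit Neto2 at 7.90 to 22.2 FPKM. Scube3, Fndc5, Gpr153, Prex2, Lrrn4 and Olfm2 peaked between 5.18 and 27.2 FPKM.

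The 9 genes of the matrix, membrane and cytoskeleton group, as assigned here, had the highest median ratio of the groups, 6.58. The rule had used this ratio, so the ranking is a description. Its steepest genes, Grifin and Csn3, are a lens protein and a casein, which the group name fits only loosely. Grifin, a galectin-related lens protein (XLOC_016257, chr5:141039143-141041021 in mm9), was listed at 0 in 9 of the 10 other libraries and at 0.166 FPKM in 3WT ESCs, and had the highest ratio, 31.2. Csn3, kappa casein, followed with 6.22 FPKM in 3WT, 11.46 in 3.34Null-Rescue, 31.6 in 3.34Null and 12.01 in 2.6Null and a ratio of 26.3. Gjb2, connexin 26, stood at 13.7, 7.92, 55.8 and 7.77 FPKM, with a ratio of 11.6. Col2a1, type II collagen, stood at 31.3, 15.4, 68.1 and 45.6 FPKM, and the actinin-binding Pdlim3 at 15.9, 10.9, 35.0 and 17.1 FPKM. For Csn3, Gjb2, Col2a1 and Pdlim3 alike the highest line was 3.34Null. Pmp22, a myelin membrane protein, was the most abundant of the group, at 192.1, 178.4, 129.7 and 279.6 FPKM, and was highest in 2.6Null.

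Mest (XLOC_016400, chr6:30683506-30846760 in mm9), a paternally expressed gene of the hydrolase fold, was the most abundant of all, with 433.3 FPKM in 3WT, 504.3 in 3.34Null-Rescue, 714.1 in 3.34Null and 420.9 in 2.6Null. Its ESC levels were 29.6, 21.1, 20.7 and 63.9 FPKM. Both arginases were in the set. Arg1 was listed at 0 in the 4 ESC libraries and stood at 71.1, 43.9, 73.0 and 35.7 FPKM at cXENp1, and Arg2 stood at 15.7, 10.4, 45.9 and 22.4 FPKM. Pdk3, a pyruvate dehydrogenase kinase, had a shallow peak of 59.8 to 121.9 FPKM over 12.6 to 29.8 FPKM elsewhere. The other 5 genes were 0610040J01Rik, BC048679, Gm8994, Gm20765 and Fam178a (Slf2 in RefSeq's synonyms), a localization factor of the SMC complex in DNA repair.

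The genes lay on 20 chromosomes, 6 of them on chromosome 7. Among those 6, Ap3b2, the neuronal AP-3 adaptor subunit (chr7:88605285-88638811 in mm9), and BC048679 (chr7:88639160-88643216) are neighbours 348 bp apart. Spans overlap other genes for Csn3, Msx1, Arg2, Mest and Fam178a, and values there are uncertain where the counting could split reads. Msx1as, the antisense gene of Msx1, itself read 2.69 to 10.5 FPKM at cXENp1. Copg2, which overlaps Mest, was lower at cXENp1 (13.0 to 30.6 FPKM) than Mest, and in ESCs it was at 22.0 to 46.4 FPKM.

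The same limits were also applied to each line in turn, with the genes chosen from the other lines. When 3WT was left out and the genes chosen from the other lines, 92.2% of the 51 genes found held the same limits in 3WT, against 7.86% of all 13191 tested genes. The share was 85.5% of 55 for 3.34Null (4.36% of all), 71.6% of 74 for 3.34Null-Rescue (3.89%) and 62.4% of 93 for 2.6Null (2.85%). Most genes chosen from 3 lines thus met the limits in the left-out line, least often in 2.6Null. The 46 genes of the set are among those chosen each time and hold in every line by the rule, so much of each share was fixed in advance. All lines went through the same treatment, and the rescue shares its origin with 3.34Null. High shares therefore follow from the design, and these values describe the set without testing the choice.

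Null and present lines were compared at cXENp1 with limma across all 13191 genes, on log2(FPKM + 1) with a Benjamini-Hochberg adjusted p under 0.05. Of the 46 genes, 1 was called higher in the null lines and 0 lower, where 0.485% of all genes were called in either direction (0.364% higher, 0.121% lower). The gene was Gm20765 (XLOC_001688, chr10:103631097-103633576 in mm9), a protein-coding model of unassigned function. Its level was 10.98 FPKM in 3WT, 5.45 in 3.34Null-Rescue, 82.8 in 3.34Null and 59.9 in 2.6Null, so the groups did not overlap. The log2 difference was 3.02 (SE 0.44, n = 2 lines against 2, limma adjusted p = 0.0224). The call was lost, with an adjusted p up to 0.293, with a pseudocount of 0.1, with the filter on mean level, with a common sum, and without 3WT, 2.6Null or 3.34Null-Rescue. The log2 difference remained between 2.58 and 3.47 in these settings.

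The test left the other members uncalled, and their values were as follows. Grifin lay lower in both null lines (5.18 FPKM in 3.34Null and 5.17 in 2.6Null) than in both present lines (11.55 and 12.3 FPKM). Its log2 difference of -1.07 (SE 0.20) missed the threshold with a limma adjusted p of 0.0549 and passed it without the filter, with quantile normalization and without the trend (adjusted p 0.0183 to 0.0418). Ap3b2 was lower as well, at 43.6 FPKM in 3WT and 29.8 in 3.34Null-Rescue against 21.1 in 3.34Null and 14.04 in 2.6Null (log2 difference -1.02, SE 0.32, limma adjusted p = 0.236). Tshz1 (-0.95), Mpped2 (-0.57), Mex3b (-0.50), Prex2 (-0.42), Dhrs3 (-0.41) and Rarb (-0.38) had the next most negative log2 differences, and Tshz1 was low in 2.6Null alone (9.94 FPKM against 35.6 to 38.9 FPKM).

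On the other side, Upk1a, a uroplakin, stood at 13.2 FPKM in 3WT and 5.78 in 3.34Null-Rescue against 23.9 in 3.34Null and 36.3 in 2.6Null (log2 difference 1.64, SE 0.41, limma adjusted p = 0.137). Lgals4, galectin 4, stood at 16.4 and 12.015 FPKM against 26.4 and 43.1 FPKM in the same order (1.21, SE 0.32, limma adjusted p = 0.150). Col2a1 (1.30), Tbx2 (1.37), Arg2 (1.26) and Csn3 (1.12) were also higher in both null lines than in both present lines, with limma adjusted p-values of 0.236 to 0.354. For Gjb2 (0.96) only 3.34Null was high, and without that line its log2 difference was -0.39. For Stra8 the log2 difference was -0.12, with a 95% interval of -1.16 to 0.91, so a 2-fold difference in the negative direction lay inside it.

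**Figure D2:**
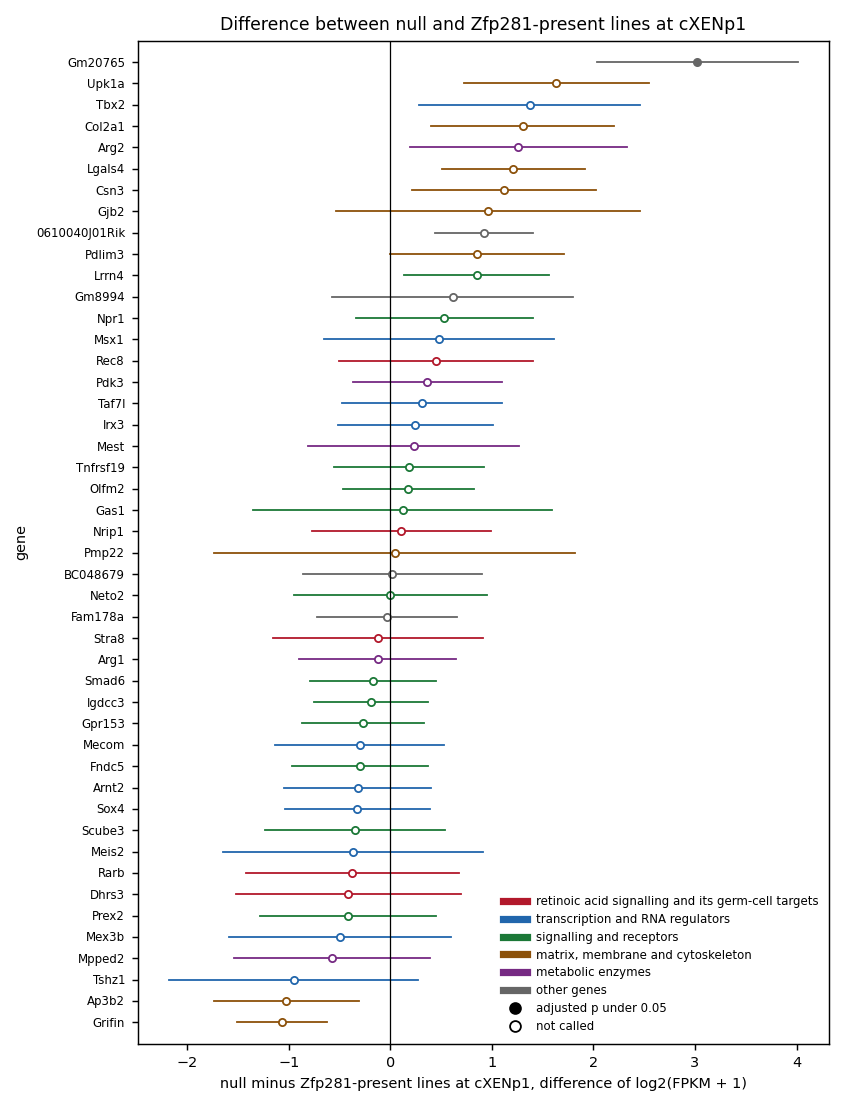
Null minus present log2 difference at cXENp1 for each of the 46 genes, sorted, with bars for the 95% interval of limma's fit (2 lines against 2). Gm20765 stands at 3.02 as the single called gene, and Grifin at -1.07 is the most negative.

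Over the set, the median null minus present difference at cXENp1 was 0.07 against 0.04 for all tested genes, and 25 of 46 (54.3%) lay above 0, as did 54.3% of all genes. An unadjusted p under 0.05 was found for 11 of 46 (23.9%), against 11.3% of all. Both null libraries exceeded both present ones in 14 genes (30.4%, all genes 27.2%) and fell below both in 7 (15.2%, all genes 20.6%). The median moved to -0.22 without 3.34Null and to 0.33 without 2.6Null, and it was -0.01 without 3.34Null-Rescue, -0.08 with quantile normalization and -0.11 with a common sum, so its sign was not stable. By line, 3.34Null was the highest in 19 genes (41.3%, all genes 20.8%) and 2.6Null the lowest in 21 (45.7%, all genes 31.9%). The present line 3.34Null-Rescue was the lowest in 18 (39.1%, all genes 24.8%) and 3WT the highest in 14 (30.4%, all genes 23.2%). The remaining ranks were held less often: 2.6Null was the highest in 9 (19.6%, all genes 34.4%) and 3.34Null-Rescue in 4 (8.7%, all genes 21.7%), and 3WT was the lowest in 4 (8.7%, all genes 28%) and 3.34Null in 3 (6.52%, all genes 15.2%).

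A list of 8 genes of 2-cell-like cells, a rare state of ESC cultures that resembles the early cleavage embryo, summed to 300.9 FPKM in 3.34Null, 181.7 in 2.6Null, 168.5 in 3WT and 74.9 in 3.34Null-Rescue at cXENp1, against 0 to 33.0 FPKM in the other libraries. Of these, Tcstv1 and Tcstv3 are listed at 0 in all libraries. In this sum 3.34Null was the highest and 3.34Null-Rescue the lowest. In the set 3.34Null was the highest in 19 of 46 genes (all genes 20.8%). The lowest line was 2.6Null in 21 genes (all genes 31.9%) and 3.34Null-Rescue in 18 (all genes 24.8%). The part of such cells in the levels was not tested, and in bulk libraries fewer cells of a type and less RNA per cell cannot be told apart.

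In ESCs 1 of 46 genes was called between null and present lines, against 1.97% of all genes (0.917% lower). Ap3b2 stood at 5.05 FPKM in 3WT and 5.47 in 3.34Null-Rescue against 0.799 in 3.34Null and 0.246 in 2.6Null. It was lower by a log2 difference of -2.06 (SE 0.32, limma adjusted p = 0.0209), and both null libraries lay below both present ones at each of the 3 stages. With the library prefix in the fit, the adjusted p was 0.0832, and it was 0.0759 to 0.620 when 3WT, 3.34Null-Rescue or 2.6Null was left out. Whether the null minus present difference at cXENp1 differed from that in ESCs was tested as an interaction by limma, which called 0 of the 46 genes (0.0379% of all genes). An unadjusted p under 0.05 was found for 8 of them (17.4%, all genes 11.8%).

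After the peak, differences between null and present lines were called in part of the set. The rule had held every cXENp3 library below the cXENp1 level, so the shares are not read against those of all genes. At cXENp3, 9 of 46 genes (19.6%) were called between them, 7 lower and 2 higher in the null lines, where 41.9% of all genes were called, 19% lower and 22.9% higher. Differences above 0 were found for 17 of the 46 (37%, all genes 50.5%). Both null libraries lay below both present ones in 18 genes (39.1%, all genes 35.7%) and above both in 6 (13%, all genes 37.2%). Stra8 differed most, with 0.871 FPKM in 3.34Null and 0.170 in 2.6Null, while 3WT was at 44.6 and 3.34Null-Rescue at 63.1 FPKM. Its log2 difference was -5.19 (SE 0.46, limma adjusted p = 0.000106), and it was called in every alternative fit that was run (adjusted p 6.33e-05 to 0.0102).

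Rec8, the other meiotic gene, stood at 10.8 FPKM in 3WT and 7.56 in 3.34Null-Rescue against 1.28 in 3.34Null and 4.36 in 2.6Null (log2 difference -1.52, SE 0.43, limma adjusted p = 0.0182). Mest stood at 80.8 and 119.4 FPKM in the present lines against 26.1 and 37.8 FPKM in the null lines (-1.61, SE 0.47, limma adjusted p = 0.0205). Ap3b2 (-1.94), Mpped2 (-1.74), a metallophosphoesterase, Gm8994 (-1.58), and Prex2 (-1.19), an activator of Rac, were also lower in the null lines, with limma adjusted p-values of 0.00155 to 0.0369. Msx1 was higher in the null lines (2.61 FPKM in 3.34Null and 3.92 in 2.6Null against 0.306 in 3WT and 0.762 in 3.34Null-Rescue, log2 difference 1.47, SE 0.51, limma adjusted p = 0.0411). Nrip1 was likewise higher, at 4.23 and 5.01 FPKM against 1.61 and 1.63 FPKM (1.10, SE 0.39, limma adjusted p = 0.0475).

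These calls rest on few lines. Leaving out a line leaves a single library in a group at each stage. Fewer of the set, and a smaller share of all genes, were then called without 3WT or 3.34Null-Rescue. More of both were called without 3.34Null. Of the 9, Stra8 alone was called whichever line was left out. Feeder fibroblast markers, 10 genes, summed at cXENp3 to 35.8 FPKM in 3WT, 1255 in 3.34Null-Rescue, 276.7 in 3.34Null and 354.0 in 2.6Null, and to 552.3 and 634.6 FPKM in the XEN lines. Gas1 stood at 23.8 FPKM in 3.34Null-Rescue against 1.26 to 4.32 FPKM in the other cXENp3 libraries, the same library being the highest. The part of feeder RNA was not tested.

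**Figure D3:**
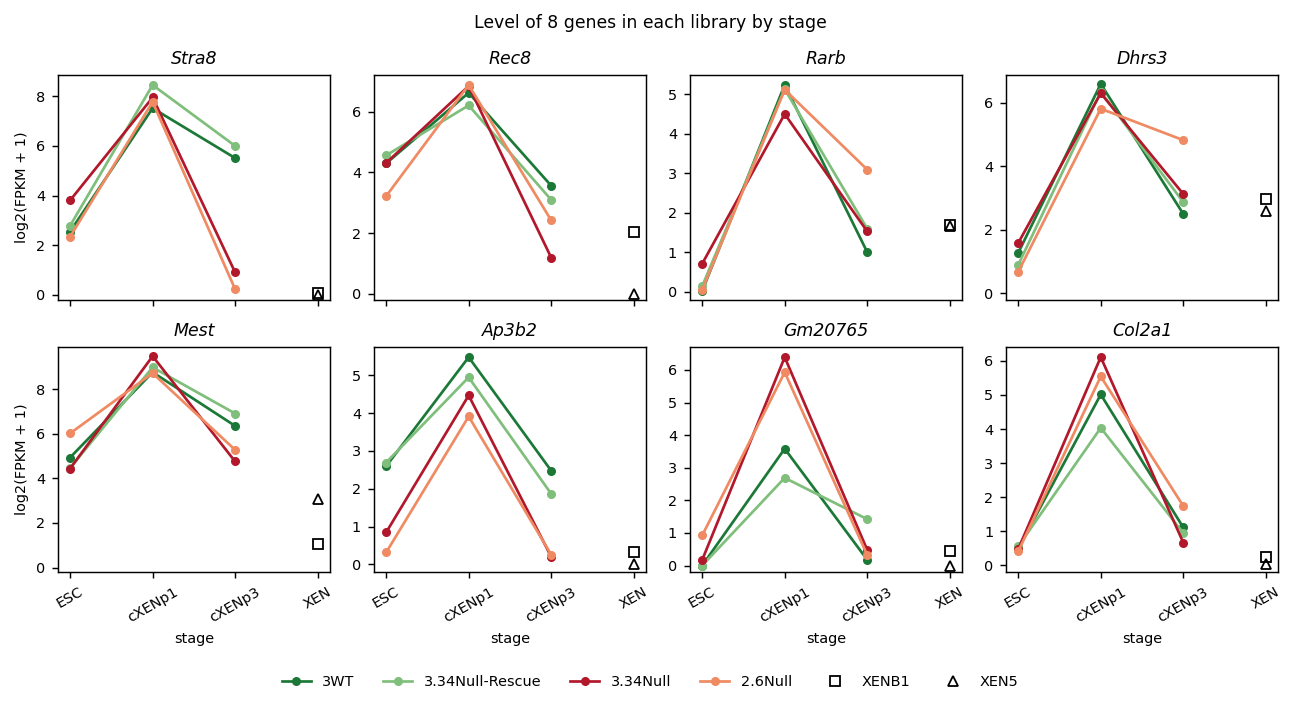
FPKM by stage for Stra8, Rec8, Rarb, Dhrs3, Mest, Ap3b2, Gm20765 and Col2a1, with 1 line per cell line and separate points for XENB1 and XEN5, on a log2(FPKM + 1) axis. After the shared peak Stra8 drops below 1 FPKM in the null lines and remains at 44.6 and 63.1 FPKM in the present lines.

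How far each gene returned to its ESC level was measured as cXENp3 minus ESC. The rule caps both stages below the cXENp1 peak and does not set 1 of them above the other. Limma called 14 of the 46 in the null lines, with 11 above and 3 below ESCs at cXENp3, where 47.8% of all genes were called (25.5% higher, 22.3% lower). Above their ESC level were Pmp22 (3.05), Dhrs3 (2.85), Meis2 (2.28), Rarb (1.93), Irx3 (1.73), Arg1 (1.56), Msx1 (1.43), Sox4 (1.30), Pdlim3 (1.29), Smad6 (0.86) and Gpr153 (0.72) on the log2 scale, and below it Stra8 (-2.51), Rec8 (-1.96) and Igdcc3 (-0.97), by limma adjusted p-values of 0.00155 to 0.0484. The retinoic acid group was therefore split, with the receptor and the reductase above and the meiotic genes below. In 2.6Null at cXENp3 Dhrs3 was at 27.4 FPKM, Rarb at 7.53 and Pmp22 at 39.1 FPKM, against 7.76, 1.89 and 7.12 FPKM in 3.34Null. Without 2.6Null fewer genes of the set and a smaller share of all genes were called, and Rarb, Pmp22 and Irx3 were not among them.

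In the present lines 1 of 46 was called, where 1.3% of all genes were (0.561% higher). Stra8 was higher at cXENp3 than in ESCs by 3.09 (SE 0.46, limma adjusted p = 0.0245). The call was lost with the library prefix in the fit (limma adjusted p = 0.119), without 3WT (0.108) and without 3.34Null-Rescue (0.986); both present ESC libraries carry JH and both cXENp3 libraries XH. Differences above 0 were found for 38 of 46 genes (82.6%) against 49.3% of all genes and a median log2 difference of 0.56 against -0.01. All 12 signalling genes and all 5 metabolic genes were above 0. In the null lines 26 of 46 (56.5%) lay above 0, against 49.8% of all genes. Both comparisons use ESCs of their own lines.

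Whether the return differed between null and present lines was tested as a further interaction, chosen after the data had been seen. It called 3 of 46 genes, all more negative in the null lines, where 22.6% of all genes were called (8.85% in that direction). The interaction on the log2 scale was -5.60 for Stra8 (SE 0.66, limma adjusted p = 0.00177), -2.14 for Mest (SE 0.66, limma adjusted p = 0.0440) and -1.23 for Igdcc3 (SE 0.36, limma adjusted p = 0.0356). The call of Stra8 was lost without 3WT (limma adjusted p = 0.0875). Those of Mest and Igdcc3 were lost without the filter, with a common sum, with the library prefix, and without 3WT, 2.6Null or 3.34Null-Rescue, with limma adjusted p-values of 0.0509 to 0.319. The call of Igdcc3 was also lost without 3.34Null and with the filter on mean level, and that of Mest with the line as a block (limma adjusted p-values of 0.0543 to 0.0621). Igdcc3 stood at 2.24 and 2.79 FPKM in null ESCs and 0.605 and 1.00 FPKM at cXENp3, while the present lines went from 1.18 and 1.32 to 2.03 and 1.41 FPKM. These Igdcc3 levels are all low beside the cXENp1 peak.

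**Figure D4:**
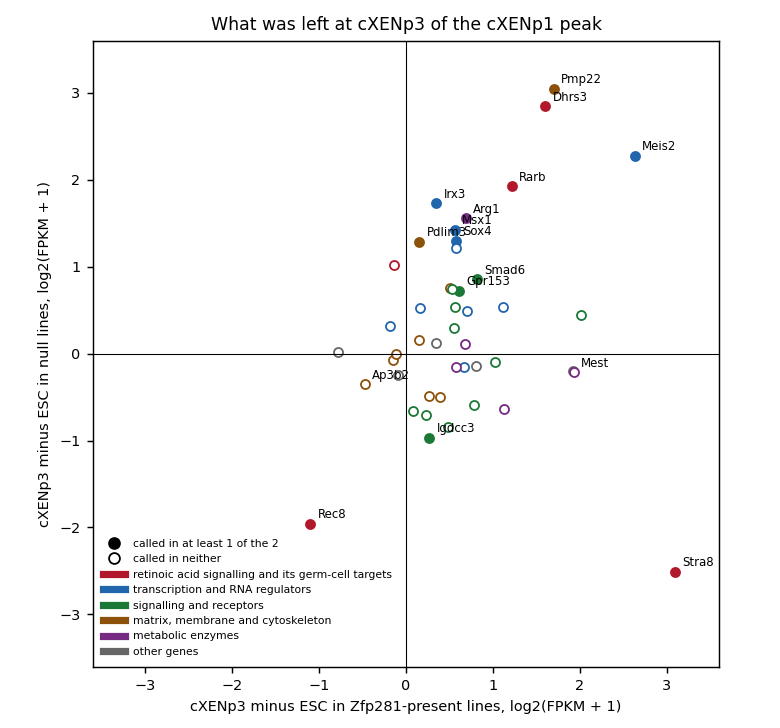
Difference of cXENp3 from ESC on the log2(FPKM + 1) scale for the 46 genes, with present lines on the horizontal axis and null lines on the vertical axis. Most points lie right of 0, and Stra8 stands alone at 3.09 in the present and -2.51 in the null lines.

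In the established XEN lines, 28 of the 46 genes passed the filter of 1 FPKM in 2 of the 6 XEN and ESC libraries. Of these, 14 were called against ESCs, 8 higher and 6 lower, where 41.9% of the 12372 genes tested were called (22.2% higher, 19.7% lower). Pmp22 (2.99), Arg1 (2.55), Meis2 (2.38), Dhrs3 (1.68), Irx3 (1.59), Rarb (1.44), Msx1 (0.92) and Lrrn4 (0.82) were higher in XEN lines on the log2 scale. Rec8 (-3.08), Mest (-2.89), Stra8 (-2.84), Mpped2 (-1.35), Igdcc3 (-1.32) and Taf7l (-1.30) were lower, with limma adjusted p-values of 0.000586 to 0.0377 over the 14. Arg1 was at 1.73 FPKM in XENB1 and 11.6 in XEN5, and Mest at 1.11 and 7.43 FPKM, so the XEN lines themselves differed. Fewer members, and a smaller share of all genes, were called without XENB1 or without XEN5, where a single XEN library is left. The comparison shares its ESC libraries with the one of null cXENp3. Both XEN libraries carry the prefix XH and most ESC libraries JH, and no fit with the prefix was run for this comparison.

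Other genes of the same pathways were read from lists. At cXENp1 against ESCs, where 46.5% of all genes were called (23.6% higher), the 20-gene retinoic acid list had 13 tested genes outside the set, of which 9 rose and 1 fell. Most ESC libraries carry the prefix JH and the cXENp1 libraries XH, and with the prefix in the fit 6 rose and 1 fell. Over all pathway lists the calls outside the set then went from 75 to 39, while the share of all genes called went from 46.5% to 23%. Of the retinoic acid genes, Stra6, the retinol transporter (log2 difference 4.39, SE 0.22), and Meis1, a paralogue of Meis2 (4.17, SE 0.48), rose, and Tgm2, a transglutaminase, fell by 2.78 on the log2 scale. With the prefix the Tgm2 call was lost (limma adjusted p = 0.0529) and Meis1 was at 2.72. Rarb, Dhrs3, Stra8, Meis2, Tshz1 and Nrip1 are the members on that list.

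Of the activin and TGF-beta list, 7 of 15 genes outside the set rose and 1 fell, with Tgfb2 (2.81, SE 0.49) and Ltbp1 (1.90, SE 0.48) among those that rose, and Smad6 is its member (4 rose and 1 fell with the prefix in the fit, where Ltbp1 was at 3.00 and the Tgfb2 call was lost, limma adjusted p = 0.0628). The neural crest and cardiac mesoderm list had 12 of 15 higher and 1 lower, with Msx2 (3.07), Sox9 (2.35) and Hand2 (2.26) beside the member Msx1 (5 and 2 with the prefix, where the Hand2 call was lost, limma adjusted p = 0.128). In the neural progenitor list, with the member Irx3, 7 of 15 rose and 5 fell (4 and 1 with the prefix). Among 21 actin and SRF or YAP targets 18 rose and 1 fell (11 and 0 with the prefix). Of the caudal epiblast list 2 of 10 rose and 4 fell, of the stress and p53 list 3 of 12 rose and 1 fell, and of the immediate early list 4 of 10 rose and 0 fell. With the prefix these 3 lists had 0, 0 and 1 higher and 1 lower each. Among marker lists, 12 of 12 pluripotency genes fell and 10 of 14 XEN genes, 3 of 9 fibroblast genes and 6 of 6 tested 2-cell-like genes rose. With the prefix 11 pluripotency genes fell and 1 XEN gene, 0 fibroblast genes and 5 2-cell-like genes rose. That term rests on the null ESC libraries, where XEN markers summed to 594.9 FPKM in 2.6Null and 98.9 FPKM in 3.34Null. Of the trophoblast list 3 of 6 rose and 1 fell, and of the endothelium and blood list 2 of 7 rose and 2 fell. Between null and present lines at cXENp1, limma called 0 genes of these lists.

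The non-members whose profile over the 14 libraries was most like the mean standardized profile of the set were Hoxb5 (Pearson r = 0.987), Arhgap36 (0.986), Tmem92 (0.986), Gm428 (0.985) and Stox1 (0.985). This is a description across libraries that share stages and lines. Hoxb5, at 23.1 to 41.5 FPKM at cXENp1 and at most 0.901 FPKM elsewhere, met both limits and was left out by its symbol. Tmem92 reached 3.91 to 9.74 FPKM, and the other 3 lay under the limit of 5 FPKM in every library.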

How the data were processed

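PolyA RNA-seq (paired reads of 150 bp) of 14 libraries was deposited as 1 table of 23174 loci. Reads were aligned with STAR 2.5.3 to mm9 and handled with Cufflinks 2.1.1, per the submitters' processing notes. The unit is not stated; from the values, which are not whole and sum differently in each library, they were taken as FPKM as the authors deposited them. Counts and depth are unknown, so no counting interval was computed. Coordinates are the table's, shifted to count from 1.

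Tests used log2(FPKM + 1), a scale on which changes of low genes are understated. Genes with at least 1 FPKM in at least 2 fitted libraries were kept (13191). The 12 libraries of the course formed 6 groups of stage by Zfp281 state in limma 3.58.1 (R 4.3.3; lmFit, eBayes with trend), with Benjamini-Hochberg adjustment over all genes and a threshold of 0.05. Line pairs the stages. As a random block its consensus correlation was 0.04. Alternatives were a pseudocount of 0.1, no filter, a mean of at least 5 FPKM, quantile normalization, a common sum, no trend, the library prefix as a term, the line as a block and each line left out.

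Members, roles and gene lists were chosen with earlier results of these data known. Genes were named by rule: Zfp281; the 12 highest ratios; the 8 highest lowest-cXENp1 values; the 8 largest null minus present differences at cXENp1 in each direction; members called at any stage; the 4 genes on either side of the ratio limit; members on pathway lists, with up to 3 called non-members per list; and the 5 non-members of highest correlation. Other members were named for the group they belong to, after their values were seen. The scripts were tested on simulated data.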

Additional observations from a re-analysis of the deposited data

Results flagged for a closer look

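With 4 lines at cXENp1, a line was picked out where its gap to the nearest other line exceeded Dixon's critical share of the range. For normally spread values about 1 of 20 groups meets this limit by chance. It was met by 4 of 46 genes. FPKM values need not be spread that way, and the share of all genes meeting the limit was not computed. The count is therefore not read as a trait of the set. Gjb2 was high in 3.34Null (55.8 FPKM, the other lines at 7.77 to 13.7 FPKM). Low values in 2.6Null picked out Tshz1 (9.94 FPKM against 35.6 to 38.9 FPKM), Fndc5, the irisin precursor (5.28 FPKM against 8.43 to 8.74 FPKM), and Gpr153, an orphan receptor (8.27 FPKM against 11.9 to 12.5 FPKM). Of the 4, 3 were thus 2.6Null values, and 2.6Null was the lowest line in 31.9% of all genes at this stage. That library also had the highest sum of XEN markers at this stage, and its part in these values was not tested.

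The change from ESC to cXENp3 differed between null and present lines for 3 genes by limma's interaction term. The difference was -5.60 for Stra8 (adjusted p = 0.00177), -2.14 for Mest (adjusted p = 0.0440) and -1.23 for Igdcc3 (adjusted p = 0.0356), each more negative in the null lines. This test was added after seeing the data. With the library prefix in the fit only the Stra8 call of these 3 remained, and without 3WT none did (adjusted p 0.0875 to 0.319).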

How the results depend on the processing

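Unknown depth and 2 lines per Zfp281 state limit these results. Leaving out 1 line often changes a count, for all genes as well as for the set. Sums of FPKM are mostly lower at cXENp1, and scaling to a common sum raised the median cXENp1 minus ESC difference of all genes by 0.46.

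The set held 46 genes, 77 with a floor of 2 FPKM, 28 with a floor of 10 FPKM, 74 with a ratio of 1.5, 28 with a ratio of 3, 85 with a common sum (all 46 among them), and 51 to 93 with a line left out. At cXENp1 the null against present count of 1 became 0 with a pseudocount of 0.1, a mean of at least 5 or a common sum, 2 without the filter, with quantile normalization or without the trend (Grifin added), and 0 to 1 with a line left out. In ESCs the count of 1 became 0 with the library prefix and 0 to 6 with a line left out. At cXENp3 the count of 9 became 14 with a pseudocount of 0.1, 5 without the filter and 2 to 13 with a line left out.

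For cXENp3 minus ESC the 14 calls in null lines became 7 to 14 with a line left out, and the 1 call in present lines became 4 with a pseudocount of 0.1, 0 with the prefix and 0 to 5 with a line left out. The added interaction's 3 calls became 6 with a pseudocount of 0.1, 1 without the filter, with a common sum or with the prefix, 2 with the line as a fixed block and 0 to 8 with a line left out. For XEN lines against ESC the 14 calls became 3 of 6 genes tested with a mean of at least 5, and 5 to 18 with a line left out. On the pathway lists the 75 calls at cXENp1 outside the set became 49 with a mean of at least 5, 39 with the prefix, and 50 to 70 with a line left out. At cXENp1 against ESC, 46.5% of all genes were called in the main fit and 23% with the prefix. The prefix and the stage overlap, the prefix term rests on 3.34Null against 2.6Null ESCs, and the cause of these changes was not tested.

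With the line as a replicate block the counts were 1 in ESCs, 1 at cXENp1, 9 at cXENp3, 0 for the interaction at cXENp1, 15 and 1 for cXENp3 minus ESC in null and present lines, and 78 on the pathway lists. Among single genes, the difference of Gjb2 reversed, to -0.39 without 3.34Null, and stood at 2.31 without 2.6Null. Counting each named gene once per alternative fit, 272 of the other results kept direction and side of the threshold, 33 lost the call and 3 gained it. Many of the 272 are genes not called in the main fit, which had no call to lose. The median null minus present difference of the set at cXENp1, 0.074, ran from -0.222 (without 3.34Null) to 0.334 (without 2.6Null).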
